A study of Mus musculus with 6 samples.

Results

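The genes described here encode proteins of the synaptic vesicle and of the machinery that releases its contents. They were taken from a list of 42 gene symbols, matched to the probe sets of the deposited value table through the platform's annotation, and 41 of the 42 had a probe set, each of them 1. The whole table named 19505 genes over 22206 transcript probe sets. Syt5 was not analysed here. The list was drawn up with the values of these arrays known, because neuronal transcripts stood out in the array labelled MBELN 2, so the members' values in that array are given as a description, and nothing is read from a test of the members that includes it.

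A synapse stores transmitter in small vesicles. Transporters load the vesicles, synapsins hold them in a reserve, scaffold proteins of the active zone dock and prime them, and SNARE proteins (syntaxin, SNAP-25 and synaptobrevin) fuse them with the cell membrane when a synaptotagmin binds calcium. Clathrin adaptors, amphiphysin and dynamin then retrieve the membrane. In the gut, parts of the same machinery serve hormone-secreting enteroendocrine cells and the neurons of the gut wall, and broadly expressed relatives of the same proteins carry out secretion in most other cells.

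The study measured gene expression on 6 single-colour arrays of total RNA labelled as colon crypt, the epithelial glands of the large bowel, from C57BL/6J mice. The 3 MBELN arrays came from mice that received mulberry bark exosome-like nanoparticles by mouth daily for 7 days, and the 3 PBS arrays came from control mice, a name taken from the sample titles. Age and sex are not used here, and since no label ties each array to its own animal, the p-values reflect only the scatter among these arrays, part or all of which may be technical. All values are log2 and were made by the authors, 1 per probe set and array. A probe set is called above the dim level where it exceeded the 95th percentile, in the same array, of 1412 probe sets for smell and pheromone receptors, a level between 4.10 and 4.44 in the MBELN arrays and between 3.99 and 4.33 in the PBS arrays.

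The arrays did not all carry the markers of the tissue on their label. For 15 genes of gut epithelium the median stood at 7.12, 3.35 and 5.78 in MBELN 1, 2 and 3, against 19.31, 17.79 and 19.25 in PBS 1, 2 and 3. For 15 genes of heart muscle it stood at 18.63 and 18.97 in MBELN 1 and MBELN 3 and 3.68 in MBELN 2, against 3.94 to 4.08 in the PBS arrays. In MBELN 2, 15 of 15 neuronal genes from outside the vesicle cycle lay above the dim level with a median of 12.87. Also above it there were 7 of 7 astrocyte and 8 of 8 oligodendrocyte genes. In MBELN 1 and MBELN 3, 2 and 1 of the 7 astrocyte genes lay above it, and in PBS 1, 2 and 3, 3, 5 and 3. For the oligodendrocyte genes these counts were 1 or 2 of 8. MBELN 2 was the highest array for 8 of 8 oligodendrocyte genes but 5 of 7 astrocyte genes. Gja1 read 12.60 and 13.86 in MBELN 1 and MBELN 3, against 11.03 in MBELN 2. Aldh1l1 read 6.93 in MBELN 2 and was higher in each PBS array. The 5 other arrays had 5 or 6 of these 15 neuronal genes above the dim level, with medians of 3.63 and 3.50 in MBELN 1 and MBELN 3 and of 3.27 to 3.62 in the PBS arrays. The log2 of the summed level of these 15 genes ran from 10.28 to 20.35 in the MBELN arrays and from 8.57 to 9.80 in the PBS arrays. Each result below is therefore given array by array, and the comparison of MBELN with PBS is given with and without MBELN 2. The medians of the gut epithelial genes divided the arrays as the treatment did. In either comparison, an effect of the treatment and a difference in tissue therefore cannot be told apart. Hybridisation control probe sets averaged 10.08, 8.63 and 10.09 in MBELN 1, 2 and 3 and 8.98, 9.79 and 8.43 in PBS 1, 2 and 3, so MBELN 2 shared the lower level with PBS 1 and PBS 3.

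**Figure D1:**
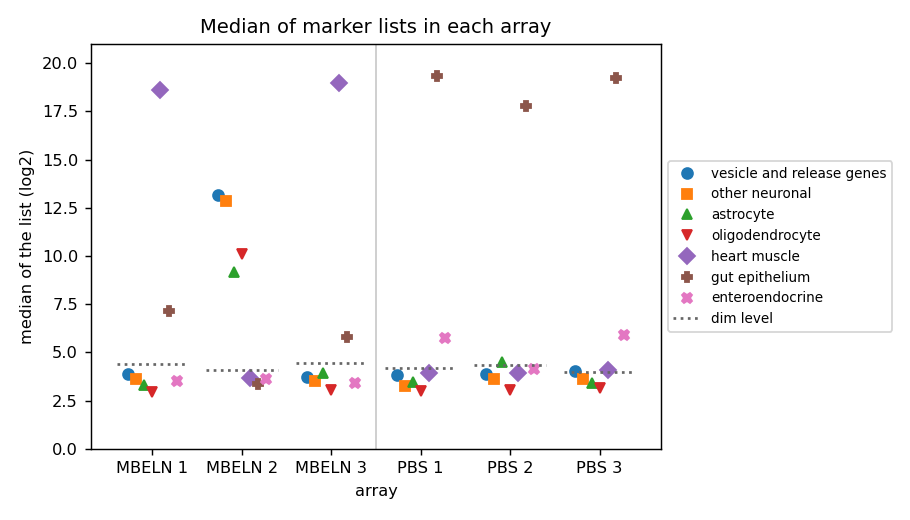
Median deposited value (log2, y axis) of the vesicle and release genes and of 6 marker lists in each array (x axis, MBELN arrays left of the vertical line); dotted bars give the dim level of each array. The vesicle and release genes have a median of 13.15 in MBELN 2 and of 3.71 to 4.05 in the other 5 arrays.

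All 41 vesicle and release genes lay above the dim level in MBELN 2, as did 55.2% of all transcript probe sets. Their median there was 13.15, against 3.90 and 3.71 in MBELN 1 and MBELN 3 and 3.82, 3.89 and 4.05 in PBS 1, 2 and 3. MBELN 2 was the highest of the 6 arrays for 41 of 41 members and for 24.6% of all probe sets, and it stood over 2 log2 units above every other array for 41 of 41 members and 8.97% of all probe sets. In a bulk sample, fewer cells of a type and less RNA per cell cannot be told apart. The excess of MBELN 2 is given for each gene as its value minus the highest of the other 5 arrays, each set no lower than its own dim level, and is written as at least N where that highest value is a dim level. The excess ran from at least 1.21 to 13.43 log2 units, with a median of 7.41 over the 41 genes, 20 of which have only such a bound. Of the 41 genes, 17 lay below the dim level in each of the other 5 arrays, as did 7721 of all 22206 probe sets. A further 5 members lay above the dim level in 1 of these arrays. The remaining 19 lay above the dim level in at least 3 of the other 5 arrays, as did 11532 of all 22206 probe sets. Of these 19 members, 11 lay above it in all 5, where 39.8% of all probe sets did. Above the dim level in both MBELN 1 and MBELN 3 were 13 members and 46.2% of all probe sets, and in all 3 PBS arrays 16 members and 46% of all probe sets.

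**Figure D2:**
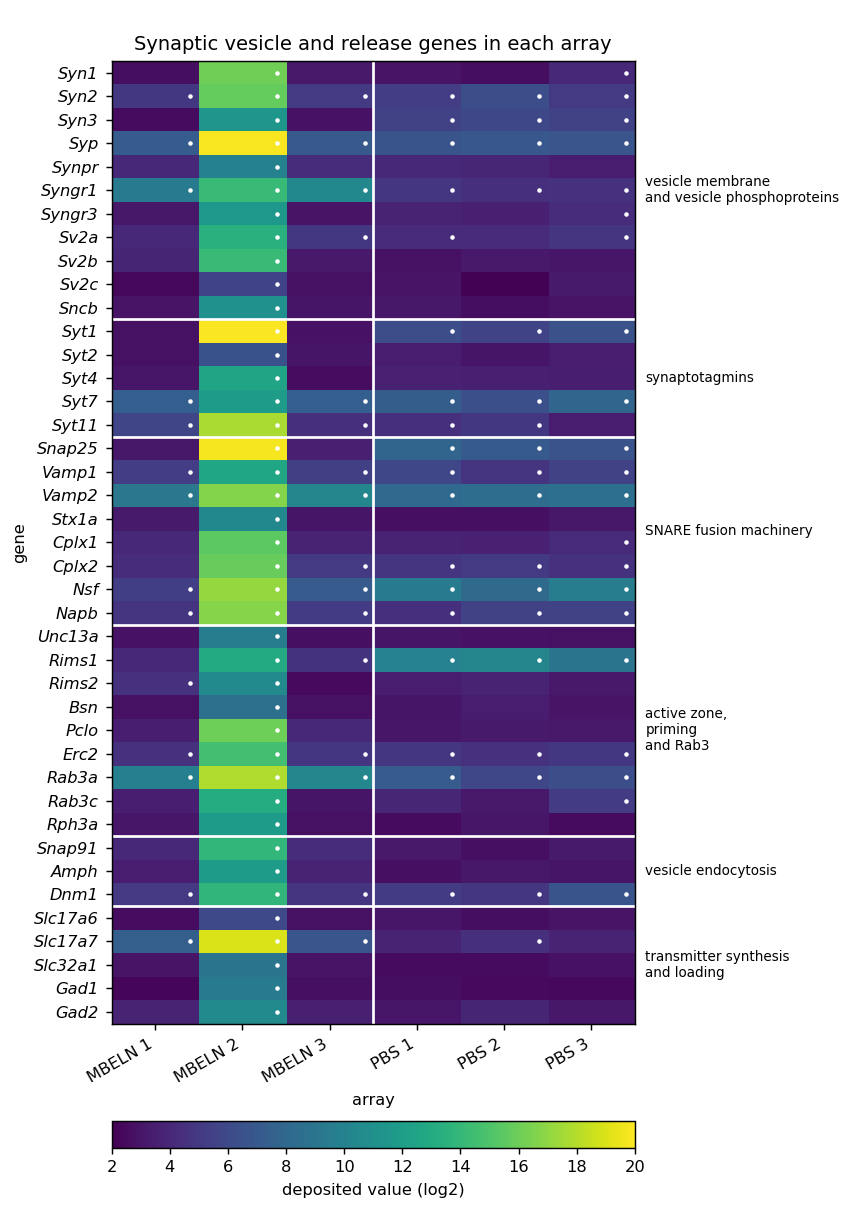
Deposited value (log2, colour) of the 41 vesicle and release genes (rows, grouped by role) in each array (columns, MBELN arrays left of the vertical line); a white dot marks a value above the dim level of that array. All 41 genes have a dot in MBELN 2, against 14 and 16 in MBELN 1 and MBELN 3 and 18, 18 and 21 in PBS 1, 2 and 3.

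The proteins of the vesicle membrane and the vesicle phosphoproteins made up 11 of the measured genes. Syn1 encodes synapsin 1, which tethers vesicles to the cytoskeleton, and read 2.70, 16.12 and 3.23 in MBELN 1, 2 and 3, against 2.95, 2.69 and 4.05 in PBS 1, 2 and 3. Outside MBELN 2, only its PBS 3 value lay above the dim level. Its relative Syn2 read 4.94, 15.77 and 5.05 in MBELN 1, 2 and 3, against 5.27, 6.33 and 5.06 in PBS 1, 2 and 3, above the dim level in every array. Syn3, the synapsin known from developing neurons, read 2.55, 11.48 and 2.91 in MBELN 1, 2 and 3, against 5.45, 5.89 and 5.47 in PBS 1, 2 and 3. The 3 synapsins thus had different patterns outside MBELN 2, with Syn3 above the dim level in the 3 PBS arrays and below it in MBELN 1 and MBELN 3. Syp encodes synaptophysin, an abundant vesicle membrane protein and a common histological marker of both synapses and neuroendocrine cells, and read 7.21, 19.81 and 7.01 in MBELN 1, 2 and 3, against 6.66, 6.91 and 6.77 in PBS 1, 2 and 3. The 5 arrays other than MBELN 2 lay close together for Syp, and the MBELN 2 value is near the top of the scale, where the highest deposited value was 19.93.

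Syngr1 encodes synaptogyrin 1, a relative of synaptophysin, and read 9.47, 14.18 and 10.41 in MBELN 1, 2 and 3, against 4.83, 4.49 and 4.60 in PBS 1, 2 and 3. All 3 MBELN arrays lay above all 3 PBS arrays. Sv2a, a vesicle glycoprotein and the binding site of the antiepileptic drug levetiracetam, read 4.04, 13.44 and 4.95 in MBELN 1, 2 and 3, against 4.20, 4.21 and 4.77 in PBS 1, 2 and 3, so that outside MBELN 2 it stayed within 1 log2 unit of the dim level. The excess in MBELN 2 was at least 9.77 for Sv2b and at least 1.21 for Sv2c, the other members of the SV2 family, and Sv2c read 5.65 in MBELN 2. It was at least 7.18 for Syngr3, at least 5.45 for Synpr (synaptoporin), and at least 6.68 for Sncb (beta-synuclein, a cytosolic protein of the nerve terminal). Sv2b, Sv2c, Synpr and Sncb were below the dim level in every array but MBELN 2, and Syngr3 was above it outside MBELN 2 in PBS 3 alone.

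Synaptotagmins are vesicle and granule proteins, several of which sense calcium. Syt1, the calcium sensor of fast release in the forebrain, read 2.82, 19.92 and 2.87 in MBELN 1, 2 and 3, against 6.24, 5.66 and 6.49 in PBS 1, 2 and 3. Its excess in MBELN 2 was 13.43 log2 units, from a value that, like those of Syp and Snap25, is near the top of the scale, so the excess may be understated. Syt2, the fast sensor of brainstem, spinal cord and some inhibitory neurons, reached 6.52 in MBELN 2, an excess of at least 2.08, and lay below the dim level elsewhere. Syt11, a form that does not bind calcium, read 5.79, 17.70 and 4.51 in MBELN 1, 2 and 3, against 4.46, 4.91 and 3.34 in PBS 1, 2 and 3. Syt4, a form of dense-core vesicles, read 3.11, 12.53 and 2.61 in MBELN 1, 2 and 3, against 3.66, 3.57 and 3.49 in PBS 1, 2 and 3. The pattern of Syt4 outside MBELN 2 was thus one of values below the dim level. Syt7, a slow, high-affinity calcium sensor that also acts in lysosome and hormone granule exocytosis, read 7.40, 11.91 and 7.35 in MBELN 1, 2 and 3, against 7.31, 6.40 and 7.88 in PBS 1, 2 and 3. Syt7 lay well above the dim level in every array, and its MBELN 1 and MBELN 3 values fell within the range of the PBS arrays.

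The fusion machinery had 8 measured genes. Snap25, the plasma membrane SNARE of neurons and endocrine cells, read 3.13, 19.73 and 3.55 in MBELN 1, 2 and 3, against 7.86, 7.08 and 6.64 in PBS 1, 2 and 3. Snap25 was above the dim level in the 3 PBS arrays and below it in MBELN 1 and MBELN 3, as Syn3 and Syt1 were. Vamp2 encodes synaptobrevin 2, the vesicle SNARE, and read 9.12, 16.63 and 10.21 in MBELN 1, 2 and 3, against 8.15, 8.42 and 8.54 in PBS 1, 2 and 3. Its relative Vamp1 read 5.24, 12.62 and 5.42 in MBELN 1, 2 and 3, against 5.85, 4.80 and 5.56 in PBS 1, 2 and 3. Both vesicle SNAREs were above the dim level in all 6 arrays. Stx1a, the neuronal syntaxin, was above it in MBELN 2 alone, where it read 10.42, an excess of at least 5.98.

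Nsf encodes the ATPase that takes used SNARE complexes apart in all cells, and read 5.35, 17.15 and 7.15 in MBELN 1, 2 and 3, against 9.46, 8.24 and 9.62 in PBS 1, 2 and 3. Napb, its adaptor of the brain, read 4.71, 16.70 and 5.18 in MBELN 1, 2 and 3, against 4.46, 5.46 and 5.48 in PBS 1, 2 and 3. Outside MBELN 2, Nsf was thus lower in MBELN 1 and MBELN 3 than in each PBS array, while the values of Napb overlapped. Complexins clamp and then aid the assembled SNARE complex. Cplx2 read 4.26, 15.82 and 5.08 in MBELN 1, 2 and 3, against 4.79, 5.08 and 4.55 in PBS 1, 2 and 3, and Cplx1 reached 15.48 in MBELN 2, an excess of at least 11.04, and stayed at or below 4.13 in the other arrays.

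The active zone, priming and Rab3 genes numbered 9. Rims1 encodes RIM1, which links vesicle-bound Rab3 to the active zone, and read 4.06, 13.01 and 4.67 in MBELN 1, 2 and 3, against 9.96, 10.21 and 8.90 in PBS 1, 2 and 3. Its excess in MBELN 2 over the highest PBS array was 2.80. Rab3a, the main Rab GTPase of synaptic vesicles, read 9.74, 17.86 and 10.35 in MBELN 1, 2 and 3, against 7.16, 5.82 and 6.31 in PBS 1, 2 and 3, with no overlap between the groups. Pclo encodes the giant scaffold piccolo and read 3.49, 16.01 and 3.97 in MBELN 1, 2 and 3, against 3.12, 3.33 and 3.23 in PBS 1, 2 and 3. Erc2, a scaffold that binds RIM and bassoon, read 4.60, 14.60 and 4.81 in MBELN 1, 2 and 3, against 4.87, 4.53 and 4.88 in PBS 1, 2 and 3. Outside MBELN 2, Erc2 was less than 1 log2 unit above the dim level, and Pclo was below it. The excess in MBELN 2 was at least 4.23 for Bsn (bassoon, the partner scaffold of piccolo), at least 5.20 for Unc13a (the vesicle primer Munc13-1), 6.04 for Rims2, 7.96 for Rab3c and at least 7.44 for Rph3a (rabphilin, an effector of Rab3). Bsn, Unc13a and Rph3a were below the dim level in the other 5 arrays, Rims2 was above it in MBELN 1 alone of these, and Rab3c in PBS 3 alone.

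Vesicle retrieval was represented by 3 genes. Snap91 encodes the clathrin adaptor AP180 and read 4.03, 13.89 and 4.29 in MBELN 1, 2 and 3, against 3.21, 2.77 and 3.28 in PBS 1, 2 and 3. Amph encodes amphiphysin, which recruits dynamin, and read 3.44, 11.85 and 3.75 in MBELN 1, 2 and 3, against 2.72 to 3.15 in the PBS arrays. For both genes the MBELN 1 and MBELN 3 values lay above each PBS value, but all of these were below the dim level, so no order is read from them. Dnm1, the neuronal dynamin that cuts the vesicle free, read 5.01, 13.83 and 4.79 in MBELN 1, 2 and 3, against 5.20, 4.86 and 6.68 in PBS 1, 2 and 3, above the dim level throughout.

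The genes that set the transmitter differed in their excess. Slc17a7 encodes the vesicular glutamate transporter typical of cortical neurons and read 7.48, 18.97 and 6.72 in MBELN 1, 2 and 3, against 3.75, 4.45 and 3.75 in PBS 1, 2 and 3. Its excess in MBELN 2 was 11.49 log2 units, and MBELN 1 and MBELN 3 lay above all 3 PBS arrays. Slc17a6, the vesicular glutamate transporter typical of thalamus, midbrain and brainstem, read 5.95 in MBELN 2, an excess of at least 1.51. The genes of the inhibitory transmitter GABA lay above the dim level in MBELN 2 alone. Gad1, which encodes a GABA-synthesising enzyme, read 2.26, 9.47 and 2.72 in MBELN 1, 2 and 3, against 2.64, 2.48 and 2.37 in PBS 1, 2 and 3. Gad2, the second such enzyme, read 3.80, 10.59 and 3.55 in MBELN 1, 2 and 3, against 3.06, 3.89 and 3.15 in PBS 1, 2 and 3. Slc32a1, the transporter that loads GABA into vesicles, read 8.90 in MBELN 2, an excess of at least 4.46. These are differences within a gene, and levels of different probe sets were not compared.

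The design sets MBELN against PBS. Over all 6 arrays, 1 of the 41 genes passed an adjusted p of 0.05 (limma, two-sided, Benjamini-Hochberg over 22206 probe sets), where 5.18% of all probe sets passed, 1.42% higher and 3.76% lower in MBELN. That gene was Syngr1, higher in MBELN by 6.72 ± 1.24 (log2, SE, n = 3 each), and because the members were chosen with this contrast in view nothing is read from the count. The median difference over the 41 genes was 2.61 log2 units, against 0.09 over all probe sets, and it was -0.0047 (n = 2 and 3) without MBELN 2. For most members the MBELN mean averaged 1 high and 2 low arrays: Syt1 differed by 2.41 ± 4.80 (SE) and Snap25 by 1.61 ± 4.61.

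The fit without MBELN 2 left out the array in which neuronal transcripts stood out. The values of the other arrays were also known when the list was drawn up, so the calls are a description of this fit. In it, 3 of the 41 genes were higher and 5 lower in MBELN at an adjusted p of 0.05, against 9.51% and 7.32% of all probe sets, so that 8 of 41 passed where 16.8% of all probe sets did. The 3 genes that rose in MBELN 1 and MBELN 3 were Syngr1, by 5.30 ± 0.38 (log2, SE, n = 2 and 3, limma, adjusted p = 0.000857), Rab3a, by 3.61 ± 0.48 (adjusted p = 0.00664), and Slc17a7, by 3.12 ± 0.40 (adjusted p = 0.00575). Slc17a7 was above the dim level in 1 of the 3 PBS arrays, so its fitted difference rests partly on PBS values that were not above background. Beside these, the heart muscle list had 15 of 15 genes above the dim level in both MBELN arrays and 6 to 9 in the PBS arrays, with a log2 summed level of 22.58 and 22.77 in MBELN 1 and MBELN 3 and of 8.91 to 11.30 in the PBS arrays. The part of heart muscle RNA in these differences was not tested, and in this fit it cannot be told apart from the treatment. Of sympathetic nerve genes, 2 of 7 lay above the dim level in MBELN 1 and MBELN 3 and 2 or 3 of 7 in the PBS arrays, and Th, Dbh, Slc6a2 and Phox2a were below it in all of these. Hand2 of this list read 8.77 and 7.03 in MBELN 1 and MBELN 3, against 4.74, 3.92 and 4.59 in PBS 1, 2 and 3. Ddc ran the other way, with 5.86 and 4.90 against 8.54, 8.92 and 8.52. The part of sympathetic nerve RNA was not tested either. The calls of Rab3a ended without MBELN 1 (adjusted p = 0.0513) and without MBELN 3 (0.0769), and that of Slc17a7 without MBELN 1 (0.0541), at differences between 2.74 and 3.92. Each of these settings leaves 1 MBELN array, whose spread is taken to be that of the PBS arrays.

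**Figure D3:**
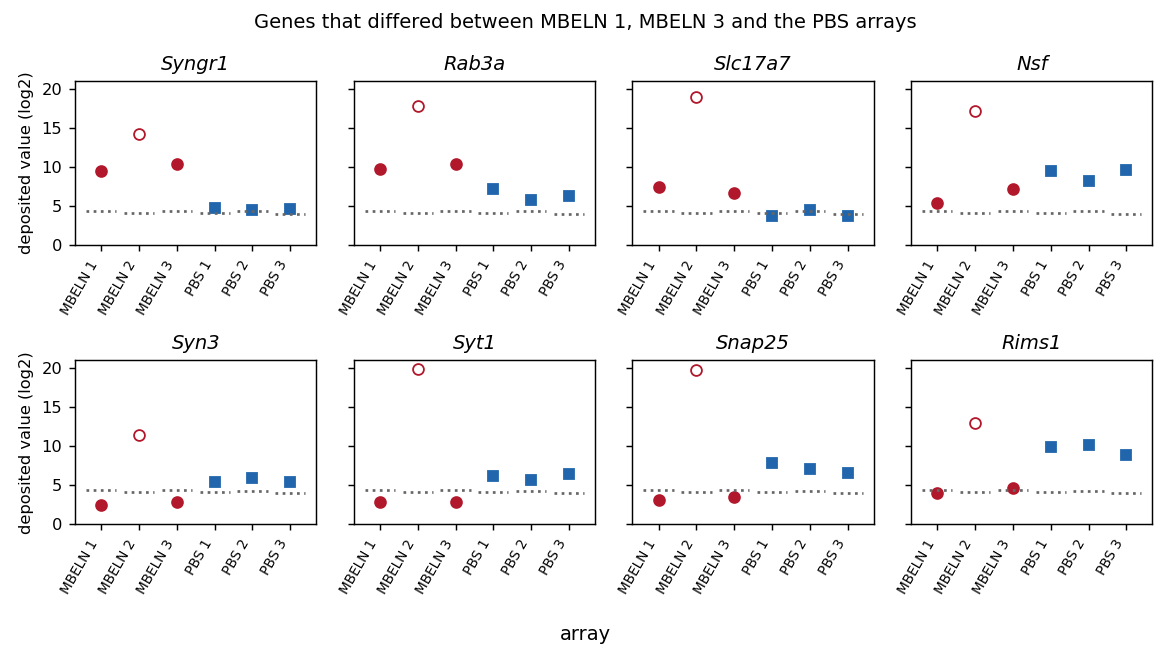
Deposited value (log2, y axis) in each array (x axis) of the 8 genes that passed an adjusted p of 0.05 in the fit without MBELN 2, the 3 higher and then the 5 lower in MBELN; circles are MBELN arrays, with MBELN 2 as an open circle, squares are PBS arrays, and dotted bars are dim levels. MBELN 2 is above every other array in each panel.

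The 5 genes that were lower in MBELN 1 and MBELN 3 than in PBS were Rims1, Snap25, Syt1, Syn3 and Nsf. Here too, treatment and tissue cannot be told apart. Rims1 fell by 5.32 ± 0.49 (log2, SE, n = 2 and 3, limma, adjusted p = 0.00192), a fitted value that rests partly on MBELN 1, where it was below the dim level. Snap25 was at least 6.86-fold lower (adjusted p = 0.00399), Syt1 at least 3.29-fold lower (0.00299) and Syn3 at least 2.28-fold lower (0.00308), each measured against the dim level because both MBELN arrays lay below it. Nsf fell by 2.86 ± 0.70 (adjusted p = 0.0480). The call of Nsf ended without MBELN 1 (0.224), MBELN 3 (0.0708), PBS 1 (0.149) or PBS 3 (0.139) and with quantile normalization (0.0501), and that of Snap25 ended without MBELN 1 (0.0521). The difference of Nsf was -1.96 without MBELN 1 and between -3.76 and -2.60 in the other settings named, and that of Snap25 was -3.64. MBELN 1, MBELN 3 and PBS 2 shared the higher level of the hybridisation controls, and within these arrays the difference, with no test, ran from -5.84 for Rims1 to 5.45 for Syngr1; since the 8 genes were chosen on a fit that holds these arrays, nothing is read from its sign.

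Enteroendocrine cells, the hormone cells of the gut epithelium, are a place where Snap25, Syt1 and other release genes are known outside neurons. Of 17 measured enteroendocrine genes, 2 and 1 lay above the dim level in MBELN 1 and MBELN 3, against 12, 7 and 13 in PBS 1, 2 and 3, and the log2 of the summed level was 8.12 and 7.65 against 13.32, 11.44 and 14.30. Pyy, a hormone of the lower gut, read 3.43 and 3.25 in MBELN 1 and MBELN 3, against 11.35, 11.13 and 11.07 in PBS 1, 2 and 3. Chga, the granule protein chromogranin A, read 4.94 and 3.05 in MBELN 1 and MBELN 3, against 7.36, 6.51 and 6.93 in PBS 1, 2 and 3. The transcription factors Neurog3 and Insm1 of the same list were below the dim level in all 6 arrays. Gcg, the proglucagon gene, read 2.76 and 2.66 in MBELN 1 and MBELN 3, against 10.80, 5.27 and 12.22 in PBS 1, 2 and 3. PBS 2 was thus the lowest PBS array for Gcg, as it was for Syt1 but not for Snap25 or Pyy. Of 11 enteric neuron genes, 3 and 4 lay above the dim level in MBELN 1 and MBELN 3, against 7, 4 and 8 in PBS 1, 2 and 3, and Phox2a and Chat were below it in all of these. The part of either cell type in the PBS values of the release genes was not tested.

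A further 38 measured genes of the vesicle cycle were described in the same way. This list and that of the relatives below were written with earlier results of these arrays known. Their counts are therefore a description and no independent support. With limma, 0 of the 38 passed an adjusted p of 0.05 over all 6 arrays, where 5.18% of all probe sets did, and 3 had an unadjusted p under 0.05, as had 3953 of all 22206 probe sets. MBELN 2 was the highest array for 29 of the 38 and for 24.6% of all probe sets. Its value minus the highest other array, here with no array raised to its dim level, had a median of 3.23. On that measure the median was -0.76 over all probe sets and 7.52 over the 41 members. Atp6v0a1, a subunit of the proton pump that powers vesicle filling, read 9.94, 16.30 and 10.89 in MBELN 1, 2 and 3, against 9.53, 9.63 and 9.45 in PBS 1, 2 and 3. Napg, a further adaptor of Nsf, read 7.77, 13.10 and 8.30 in MBELN 1, 2 and 3, against 9.05, 9.63 and 9.09 in PBS 1, 2 and 3. Both kept a reading above the dim level in every array. Itsn1, an endocytic scaffold, read 9.66, 12.53 and 10.00 in MBELN 1, 2 and 3, against 7.97, 8.03 and 9.14 in PBS 1, 2 and 3. Cask, a presynaptic scaffold also found in epithelia, read 7.20, 9.91 and 7.39 in MBELN 1, 2 and 3, against 10.02, 8.41 and 10.00 in PBS 1, 2 and 3. Sh3gl1, an endophilin of most cells, read 6.00, 6.88 and 6.13 in MBELN 1, 2 and 3, against 7.84, 6.69 and 7.87 in PBS 1, 2 and 3. For Cask and Sh3gl1, MBELN 2 lay within the range of the PBS arrays. Sncg, gamma-synuclein, ran the other way, with 9.28, 5.60 and 10.35 in MBELN 1, 2 and 3, against 8.02, 9.71 and 7.86 in PBS 1, 2 and 3. MBELN 2 was the lowest array for Sncg, over 2 log2 units below the others.

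In the fit without MBELN 2, the genes that fell numbered 6 of these 38, against 7.32% of all probe sets, and 0 rose, against 9.51%. An unadjusted p under 0.05 (limma) was found for 16 of the 38 and for 6508 of all 22206 probe sets. In the same arrays, 13 of 15 gut epithelial genes fell, and their part in these differences was not tested. Rab27b, a Rab GTPase of granule docking, was at least 66.0-fold lower in MBELN 1 and MBELN 3 than in PBS (limma, adjusted p = 0.00257) and Ppfia3, an active zone liprin, at least 15.4-fold lower (adjusted p = 0.0282), both measured against the dim level. Rab27b read 4.11, 8.50 and 4.28 in MBELN 1, 2 and 3, against 9.71, 11.65 and 10.02 in PBS 1, 2 and 3, so here MBELN 2 was between the other MBELN arrays and PBS. Further vesicular transporters were below or near the dim level in MBELN 2. Slc17a8, the remaining vesicular glutamate transporter, Slc18a3, which loads acetylcholine, and Slc18a1, which loads monoamines, were below the dim level in MBELN 2 at 2.80, 2.85 and 3.53. Slc18a2, the monoamine transporter of neurons, read 4.34 there, against a dim level of 4.10, and 4.56 and 4.49 in MBELN 1 and MBELN 3.

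Broadly expressed and epithelial relatives of the same proteins showed a different pattern. Of 25 measured relatives, MBELN 2 was the lowest array for 14 and the highest for 2, against 27.3% and 24.6% of all probe sets, and it was over 2 log2 units below every other array for 3. Over all 6 arrays, 3 of the 25 fell in MBELN and 0 rose, against 3.76% and 1.42% of all probe sets, with a median difference of -1.48 against 0.09 over all probe sets. The 3 were Scamp2, a carrier membrane protein, by 4.90 ± 0.42 (log2, SE, n = 3 each, limma, adjusted p = 0.00379), Dnm2, the dynamin of most cells, by 3.88 ± 0.64 (adjusted p = 0.0298), and Stxbp2, a syntaxin-binding protein of epithelial and blood cells, by 5.37 ± 0.93 (adjusted p = 0.0347). Without MBELN 3, PBS 1 or PBS 3, 1 of the 25 fell and 0 rose. In those fits 365, 325 and 328 of all 22206 probe sets fell, and 82, 52 and 51 rose. Without MBELN 2, 7 of the 25 fell and 2 rose, against 7.32% and 9.51% of all probe sets. Stxbp3, a relative of Stxbp2, differed by -3.03 ± 0.60 (adjusted p = 0.0508). Beside these, the gut epithelial list had 11, 2 and 12 of 15 genes above the dim level in MBELN 1, 2 and 3, against 15, 14 and 15 in PBS 1, 2 and 3, and a log2 summed level of 7.52 to 13.46 in the MBELN arrays and 22.07 to 22.79 in the PBS arrays. Its part in these differences was not tested.

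Neuronal members and their relatives were then set side by side for 10 pairs, each gene against its own mean over the PBS arrays. The pairs were picked with the values already known. Syngr2, the synaptogyrin of non-neuronal cells, read 13.81, 6.25 and 14.32 in MBELN 1, 2 and 3, against 14.88, 13.97 and 15.14 in PBS 1, 2 and 3, and MBELN 2 minus the PBS mean was -8.41 for Syngr2 and 9.55 for Syngr1. Snap23, the relative of Snap25 in most cells, read 13.29, 8.51 and 13.41 in MBELN 1, 2 and 3, against 12.05, 12.97 and 11.65 in PBS 1, 2 and 3. MBELN 2 minus the PBS mean was 12.54 for Snap25 and -3.71 for Snap23. Vamp8, a vesicle SNARE of secretory epithelia, was under the dim level in MBELN 2 and read 7.99 and 9.14 in MBELN 1 and MBELN 3, against 9.11, 10.25 and 8.98 in PBS 1, 2 and 3. Sypl, the synaptophysin relative of other tissues, read 10.27, 8.61 and 10.92 in MBELN 1, 2 and 3, against 12.10, 12.03 and 11.90 in PBS 1, 2 and 3. Dnm2 read 11.41, 9.97 and 11.41 in MBELN 1, 2 and 3, against 15.40, 13.77 and 15.24 in PBS 1, 2 and 3. Not every relative was low in MBELN 2: Napa, the general form of Napb, read 13.79, 15.97 and 13.88 in MBELN 1, 2 and 3, against 13.11, 12.48 and 13.13 in PBS 1, 2 and 3, and for Erc1 MBELN 2 minus the PBS mean was 1.29.

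**Figure D4:**
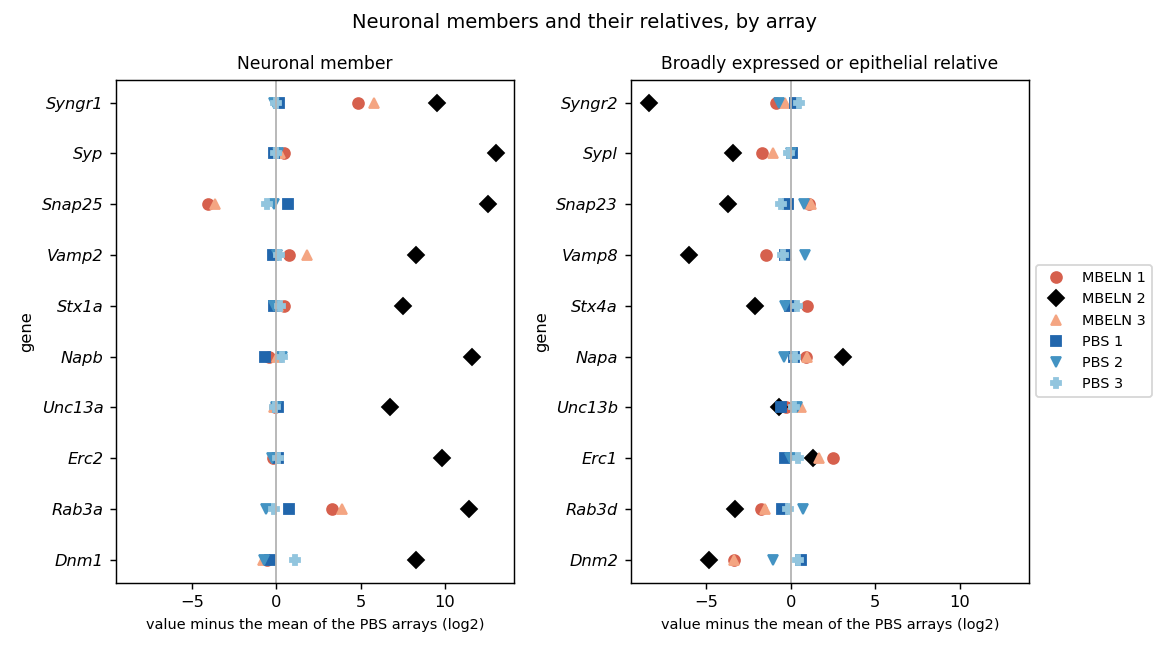
Value in each array minus the mean of the PBS arrays (log2, x axis) for 10 neuronal members (left panel) and for the broadly expressed or epithelial relative of each in the same order (right panel). MBELN 2, a black diamond, lies above every other array for all 10 members and between -8.41 and 3.06 log2 units from the PBS mean for the relatives.

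Sequences around the start sites of the 41 genes were examined as a description. The list was drawn up because neuronal transcripts stood out in MBELN 2, so the members' shared height in that array is not read as common regulation. Whether the genes share regulation was not tested. RefSeq windows on build GRCm38.p6, of 250 bases before and 50 bases after a transcript start, were found for 34 of the 41 genes, in 45 windows. Their median GC content was 61.3%, against 52.7% over 32851 windows of all genes. The motifs searched, on both strands, were TTCAGCACC and GGACAGNGC, the left and right arms of RE1, which the neuronal gene repressor REST binds, the cAMP response element TGACGTCA, the GC box GGGCGG and the TATA box TATAAA. These motifs were chosen with the expression values known, overlapping matches were not removed, and windows of 1 gene can overlap. The left RE1 arm was in 2 of 45 member windows and 0.371% of all windows, the right arm in 3 of 45 and 1.91%, the cAMP response element in 1 of 45 and 1.79%, the GC box in 27 of 45 and 35.7%, and the TATA box in 3 of 45 and 13.6%. A match is a description of letters and not a bound site.

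The 4 stretches shown are the windows with a left RE1 arm (Syn1 and Unc13a) and those of a gene high in the PBS arrays (Rims1) and a gene high in MBELN 1 and MBELN 3 (Syngr1), read 5′ to 3′ on the strand of the gene. In Syn1, at chrX:20920919-20921168 (minus strand), capitals mark the left RE1 arm at -232 to -224 and the cAMP response element at -159 to -152 from the start. In Unc13a, at chr8:71671727-71671753 (minus strand), 27 bases from 5 to 31 after the start are given and capitals mark both arms, on the strand opposite to the gene. In Rims1, at chr1:22806159-22806408 (minus strand), and in Syngr1, at chr15:80091084-80091333 (plus strand), capitals mark GC boxes.
Syn1: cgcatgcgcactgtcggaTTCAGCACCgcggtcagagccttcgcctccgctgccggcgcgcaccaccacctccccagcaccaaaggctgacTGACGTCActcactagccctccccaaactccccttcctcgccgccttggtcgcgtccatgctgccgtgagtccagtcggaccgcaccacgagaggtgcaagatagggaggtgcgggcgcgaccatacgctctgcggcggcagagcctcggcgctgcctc
Unc13a: gGCGCTGTCCgcgcccccGGTGCTGAA
Rims1: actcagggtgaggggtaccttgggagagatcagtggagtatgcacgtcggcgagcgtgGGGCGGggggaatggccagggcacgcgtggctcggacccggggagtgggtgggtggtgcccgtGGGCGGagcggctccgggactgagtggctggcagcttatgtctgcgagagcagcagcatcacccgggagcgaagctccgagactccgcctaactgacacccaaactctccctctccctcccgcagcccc
Syngr1: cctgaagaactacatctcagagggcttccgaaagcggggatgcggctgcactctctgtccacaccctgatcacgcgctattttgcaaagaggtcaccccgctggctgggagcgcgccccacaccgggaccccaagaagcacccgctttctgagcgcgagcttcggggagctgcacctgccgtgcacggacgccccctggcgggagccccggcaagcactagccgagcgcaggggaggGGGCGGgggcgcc

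Syn1 and Unc13a, the members with a left RE1 arm in these windows, had an excess in MBELN 2 of at least 11.68 and at least 5.20 log2 units, and both were below the dim level in MBELN 1, MBELN 3, PBS 1 and PBS 2. Gad2 and Sv2b, with a right arm only, had an excess of at least 6.15 and at least 9.77. MBELN 2 was the highest array for all 41 members. Of these, 17 were below the dim level in every other array, as were 7721 of all 22206 probe sets. No link between motif and level is therefore read from these values. Rims1 had 2 GC boxes in the stretch shown and Syngr1 had 1, and neither window held an RE1 arm as spelled.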

How the data were processed

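Total RNA of 6 samples was measured on single-colour mouse arrays. The authors deposited 1 log2 value per probe set and array, a scale inferred here from the values (lowest 1.77, highest 19.9) and not stated. Per the submitters' processing notes, Transcriptome Analysis Console 4.0 was used. How the arrays were background-corrected, summarized and normalized, and on which build, is not given in the sources used here. Per the labels' protocols, 90 ng of RNA was labelled after an Affymetrix procedure, and an Ion AmpliSeq assay, a sequencing method, is named beside it. Precision is limited by the number of arrays.

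Of 28846 rows, 6640 control rows were left out and 22206 transcript probe sets were kept, 19572 with 1 gene symbol, 0 with several and 2634 with none in the platform annotation. All 19572 matched RefSeq by Entrez identifier, with 0 changed symbols. MBELN was compared with PBS by limma 3.58.1 (lmFit, eBayes; R 4.3.3), two-sided, without covariates, with Benjamini-Hochberg adjustment over all probe sets, and calls were made at 0.05. Residual degrees of freedom numbered 4, or 3 without MBELN 2. The fit was tested on simulated data with the same spread in every array of a probe set. It called 15.3% of changes of 2 log2 units, 54% of 4, 83.3% of 8 and 90% of 12. No simulated array was unlike its group as MBELN 2 was, so the fit's behaviour in that case was not tested. Figures were drawn with matplotlib 3.10.9.

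The members, gene lists and tests were chosen with earlier results of these data known. Array values were given for the 3 members of each role with the highest value in MBELN 2, those above the dim level in at least 3 other arrays and those past the threshold. Of the further vesicle cycle genes and of the relatives, the 4 with the smallest p and 4 more with the highest mean could be named. Marker, transporter and paired genes, and the remaining members, were added to these with their values known.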

Additional observations from a re-analysis of the deposited data

How the results depend on the processing

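Leaving out each array in turn, the count of probe sets past the threshold ran from 377 to 3738 (main value 1150), that of members from 0 to 8 (main value 1), that of further vesicle cycle genes from 0 to 6 (main value 0) and that of relatives from 1 to 9 (main value 3), each highest without MBELN 2. Syngr1 lost its call without MBELN 1, MBELN 3, PBS 1, PBS 2 or PBS 3 (adjusted p between 0.0634 and 0.170), at differences of 6.64 to 7.66 against 6.72. With array weights these counts were 5757, 3, 6 and 13, and without PBS 2 and MBELN 2, a setting chosen after seeing the data, 6769, 8, 11 and 13. At an adjusted p of 0.01 there were 407 probe sets and 0 members, and at 0.10 there were 1772 probe sets. The deviations of same-numbered arrays from their group means correlated at -0.03, -0.07 and -0.06, and those of unlike-numbered arrays at -0.09 to 0.08. With MBELN 2 so unlike the other MBELN arrays, these values cannot tell whether the replicate numbers pair the arrays. With the replicate number as a block, 456 probe sets and 0 members passed, with an adjusted p of 0.111 (limma) for Syngr1. The median difference over the members was 2.54 with quantile normalization, 0.29 with array weights and between -0.0047 (without MBELN 2) and 4.24 (without MBELN 3) when 1 array was left out. The cause of these shifts was not tested.

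Alternatives for the fit without MBELN 2 were also chosen after seeing the data. The members past the threshold numbered 4 to 8 when a further array was left out (4 without MBELN 1), and 7 to 10 with the other settings run. All 8 called members kept their direction in each of these settings. The count over all probe sets was 6047 with array weights, 7414 with the replicate block, 1882 at an adjusted p of 0.01, and 1441 to 6769 when a further array was left out. With the dim level at the 99th percentile, 8 members in MBELN 1 and 9 in MBELN 3 lay above it, against 14 and 16, and 41 of 41 still did in MBELN 2. No member had several probe sets, so that choice changed nothing.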

Other observations

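Markers of brain regions, listed from textbook knowledge with earlier results known, differed among themselves in MBELN 2. All 7 measured genes typical of cerebral cortex and hippocampus lay above the dim level there, with a median of 11.03, against 2.84 and 3.40 in MBELN 1 and MBELN 3 and 2.87 to 3.28 in the PBS arrays. Tbr1, a transcription factor of cortical projection neurons, read 13.46 in MBELN 2 and at most 3.11 in the other 5 arrays. MBELN 2 was the highest array for 6 of these 7 genes. Prox1, the exception, read 9.63, 7.53 and 9.72 in MBELN 1, 2 and 3. Of 6 measured genes typical of striatum, 6 lay above the dim level in MBELN 2, among them Rgs9 at 10.89. MBELN 1 and MBELN 3 had 1 and 2 of the 6 above it, and PBS 1, 2 and 3 had 2, 2 and 3. MBELN 2 was the highest array for 5 of the 6. Ppp1r1b, the exception, read 11.28 in MBELN 2, against 11.32, 9.81 and 12.66 in PBS 1, 2 and 3. Penk read 16.52 in MBELN 2 and up to 11.78 elsewhere. Of 10 genes listed for cerebellum, 5 lay above the dim level in MBELN 2. These were Calb1 at 10.00, Pvalb at 8.89, Cbln1 at 5.35, Zic2 at 5.15 and Zic1 at 4.87, each highest in that array. Gabra6 and Barhl1 of granule cells, Pcp2 of Purkinje cells, Cbln3 and En2 were below the dim level there. None of 8 hypothalamus genes and none of 7 brainstem and spinal cord genes lay above the dim level in MBELN 2, among them Hcrt, Pmch and Avp of the hypothalamus list and Tph2 and Slc6a5 of the brainstem list.

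Genes of peripheral neurons gave other values. Of 11 measured enteric neuron genes, 4 lay above the dim level in MBELN 2, namely Nos1, Vip, Tac1 and Uchl1, while Phox2a, Chat, Ret, Prph and Hand2 were below it. Of 17 measured enteroendocrine genes, 7 lay above the dim level in MBELN 2. Peptide genes of this list that cortical interneurons also express, Cck and Sst, read 19.01 and 17.91 in MBELN 2, where Gcg, Pyy and Nts read 2.52, 3.64 and 3.37. Chga, Chgb, Scg2, Scg3 and Pax6 were also above the dim level there, at 10.05, 11.97, 12.91, 11.12 and 4.71. Their highest values in the other arrays were 7.36, 7.89, 7.61, 3.39 and 4.53.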
